A study of Mus musculus with 2 samples.

Results

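MicroRNA precursors are short RNA hairpins from which mature microRNAs are cut, and the transcript tables of this study list 654 rows (1 row for 1 RefSeq transcript at 1 place in the genome) that carry a microRNA name. The 84 rows described here, of 80 different names, are those at 0.5 RPKM or more in at least 1 of the 2 libraries, where RPKM counts reads by transcript length (in kilobases) and by all mapped reads of the library. They were drawn from 28107 rows in all. The members were chosen by the RPKM of both libraries, so their levels and their differences between the libraries are a description. Of the 84 rows, 83 are precursors of 61 to 132 bases (median 85), and the other is Mir17hg, a longer row named for the primary transcript of the miR-17-92 cluster.

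RNA was sequenced from the mesenchyme of the lower (mandibular) molar tooth germ of mouse embryos at embryonic day 14.5, on a mixed background. The mutant library came from embryos labelled Osr2-/- (n = 1), and the control library from embryos labelled Osr2+/- (n = 1), so the control also carries a mutant allele. The zinc-finger protein Osr2 regulates transcription in the mesenchyme around developing teeth, and the comparison asks what differs in this tissue without it. Tissue was cut from frozen sections by laser capture, tissue of 3 pairs was pooled before extraction with the RNeasy micro kit, and cDNA was made with the amplifying NuGEN Ovation RNA-Seq v2 kit. The series title speaks of wild type where the sample label gives Osr2+/-, and the label was followed. The sources used here do not say which part of Osr2 the allele lacks. By the file names, each library had a sequencing lane of its own, and lane and genotype cannot be told apart. With 1 library a genotype there is no replicate check and no test between genotypes. In bulk tissue, fewer cells of a type and less RNA per cell cannot be told apart.

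A microRNA gene is first copied into a long primary transcript, from which the nuclear Drosha-Dgcr8 complex cuts the hairpin precursor. Exportin-5 (Xpo5) carries the hairpin to the cytoplasm, Dicer1 cuts it to a short duplex, and a strand of the duplex is loaded into an Argonaute protein. The loaded strand pairs with target messenger RNAs mainly through its seed, bases 2 to 8, and lowers their stability or translation. Many hairpins lie inside introns or exons of other genes, called host genes here, and are copied together with them. In mice, microRNA processing in the neural crest cells that form the facial mesenchyme is needed for normal growth of the face. The values below count sequenced fragments of amplified total RNA over the precursor loci. They can come from primary transcripts, hairpins or host transcripts, and they do not measure mature microRNAs.

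RefSeq sequences in the GRCm38.p6 table were found for 67 of the 80 names, with a hairpin for 62 of them, and all 62 hairpins were as long as their rows. The following 6 hairpins, written 5′ to 3′ with the annotated mature arms in capitals, are of the precursors on which the levels below turn: the row with the most reads (Mir546), the H19 precursor (Mir675), a hairpin nearly identical to a highly expressed messenger RNA (Mir703), members antisense to Rtl1 that were listed above 0 in opposite libraries (Mir136 and Mir431), and the mesenchymal precursor read in both libraries (Mir214).
Mir546: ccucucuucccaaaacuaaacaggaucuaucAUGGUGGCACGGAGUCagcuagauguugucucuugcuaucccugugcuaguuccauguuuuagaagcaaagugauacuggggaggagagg
Mir675: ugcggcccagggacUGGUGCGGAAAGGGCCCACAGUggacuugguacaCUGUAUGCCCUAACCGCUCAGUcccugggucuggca
Mir703: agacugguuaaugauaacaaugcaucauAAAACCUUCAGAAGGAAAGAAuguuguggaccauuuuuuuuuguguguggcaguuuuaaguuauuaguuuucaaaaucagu
Mir136: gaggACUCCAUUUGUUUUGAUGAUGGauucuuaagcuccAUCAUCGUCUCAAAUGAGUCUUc
Mir431: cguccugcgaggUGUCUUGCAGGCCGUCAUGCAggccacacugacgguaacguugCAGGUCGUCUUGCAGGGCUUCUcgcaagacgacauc
Mir214: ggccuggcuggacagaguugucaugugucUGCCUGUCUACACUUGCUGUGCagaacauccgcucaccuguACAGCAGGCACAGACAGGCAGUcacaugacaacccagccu

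The 67 names give 111 mature arms with 108 different seeds, so the detected precursors seldom share a seed. The 3 shared seeds belong to 2 pairs, shown here with the seed in capitals because members of a pair could pair with the same targets.
miR-15a-5p: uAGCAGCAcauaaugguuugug
miR-16-5p: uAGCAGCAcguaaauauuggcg
miR-99a-5p: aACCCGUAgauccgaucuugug
miR-99b-5p: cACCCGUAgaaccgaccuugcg
miR-99a-3p: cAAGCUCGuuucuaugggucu
miR-99b-3p: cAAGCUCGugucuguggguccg
Across the 62 hairpins, the share of G and C bases had a median of 53.2%, from 31.2% in Mir703 to 69.7%.

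The libraries differed strongly in depth, which sets what can be seen of so short a transcript. The Osr2-/- library held about 34.3 M mapped reads and the Osr2+/- library about 5.38 M, estimated from coverage, a ratio of 6.38. On a row of 80 bases, 1 read came to 0.364 RPKM in the Osr2-/- library and to 2.32 RPKM in the Osr2+/- library. For 3 reads these levels were 1.09 RPKM in the Osr2-/- library and 6.97 RPKM in the Osr2+/- library. Osr2 itself was at 9.16 RPKM in the Osr2-/- library and at 38.7 RPKM in the Osr2+/- library. All 10 markers of the dental mesenchyme were above 0 in both libraries, with a summed level of 303 RPKM in the Osr2-/- library against 382 RPKM in the Osr2+/- library. Markers of the dental epithelium summed to 56.3 RPKM in the Osr2-/- library against 40.0 RPKM in the Osr2+/- library, with Shh at 0 in the Osr2+/- library. Erythroid markers summed to 548 RPKM in the Osr2-/- library against 719 RPKM in the Osr2+/- library. Cartilage markers summed to 13.4 RPKM in the Osr2-/- library against 8.14 RPKM in the Osr2+/- library, and neuronal markers to 4.56 RPKM in the Osr2-/- library against 2.03 RPKM in the Osr2+/- library. Of the neuronal markers, Tubb3, Elavl3 and Stmn2 were at 0 in the Osr2+/- library and Nefl made up nearly all of the sum in the Osr2-/- library. Of the cartilage markers, Matn1 was at 0 in both libraries and Acan in the Osr2+/- library. The part of depth, tissue makeup or amplification in the differences below was not tested.

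Most detected precursors were read in the deeper mutant library. Of the 84 members, 71 were above 0.001 RPKM in the Osr2-/- library and 25 in the Osr2+/- library. In the Osr2-/- library the median member was at 1.15 RPKM and the highest at 25.3 RPKM, against a median of 0 and a highest value of 66.2 RPKM in the Osr2+/- library. These levels rest on few reads. At least 10 approximate reads lay on 13 members in the Osr2-/- library and on 1 member, Mir546, in the Osr2+/- library. Between 1 and 3 reads lay on 29 members in the Osr2-/- library and on 22 in the Osr2+/- library. At the threshold, Mir698 (0.528 RPKM) and Mir5117 (0.566 RPKM) were just inside, and Mir344c (0.479 RPKM) and Mir466 (0.472 RPKM) just outside, all in the Osr2-/- library and all at 0 in the Osr2+/- library.

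**Figure D1:**
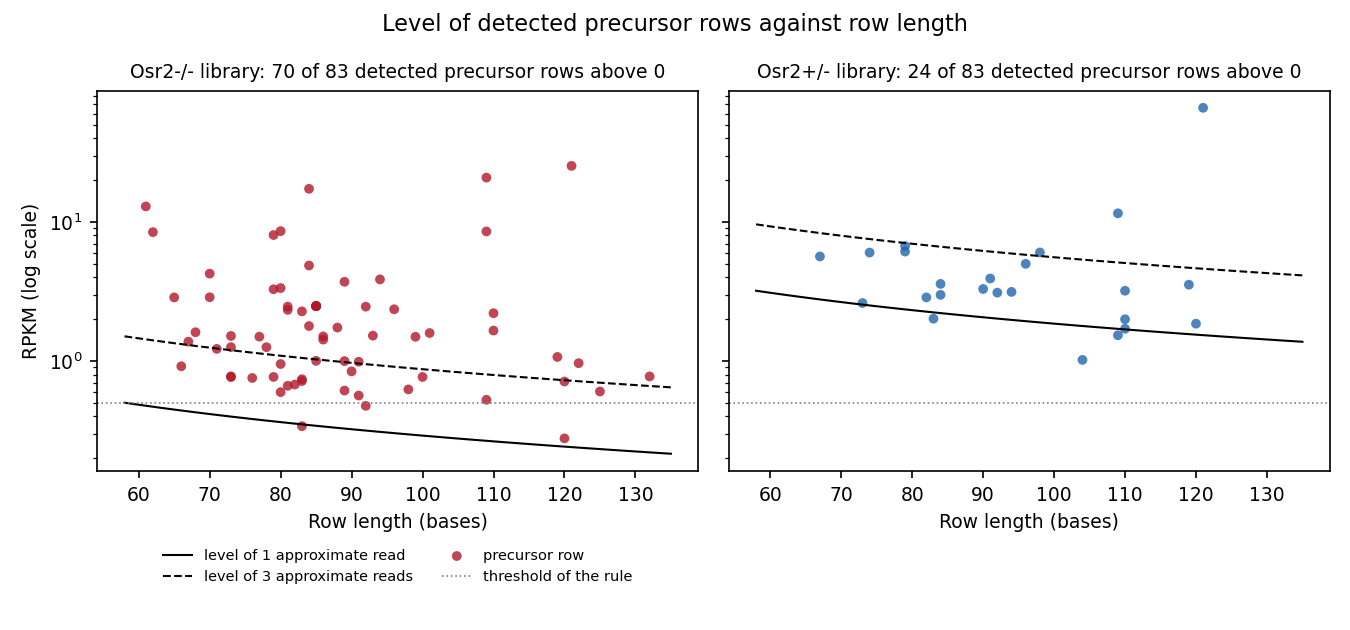
RPKM (log scale) of the detected precursor rows above 0 against row length in bases, in the Osr2-/- library (left) and the Osr2+/- library (right). The lines give the level of 1 and of 3 approximate reads at each length; on 80 bases 1 read is 0.364 RPKM on the left and 2.32 RPKM on the right, and most points on the right lie between both lines.

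In the Osr2-/- library alone, 59 members were above 0.001 RPKM, at 0.528 to 17.3 RPKM and 2 to 50 approximate reads. Only 5 of these 59 (Mir675, Mir5114, Mir1892, Mir703 and Mir1895) were above the level that 3 reads would have given in the Osr2+/- library. The remaining 54 were therefore not detectable as a difference at this depth. In the Osr2+/- library alone, 13 members were above 0.001 RPKM, at 1.02 to 6.13 RPKM, each from 1 to 3 reads. Another 12 members were above 0.001 RPKM in both libraries, and 8 of them reached 0.5 RPKM in both.

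On the scale of log2(RPKM + 1), a 2-fold difference or more put 37 of the 84 members (44.0%) higher in the Osr2-/- library and 18 (21.4%) lower. Among all 13296 rows at the same threshold, 4.26% were higher by this measure and 3.56% lower. Of the 40 other rows under 150 bases at the threshold, 42.5% were higher and 17.5% lower. The median log2 ratio was 0.86 for the members, 0.94 for the other short rows and -0.04 for all rows. The rule lets in rows by their level in 1 library alone, and short rows pass it on few reads, so nothing is read from the difference between these shares. The 95% counting interval of the fold, made from approximate reads, lay above 1 for 3 members (3.57%, against 13.7% of all rows and 0.0% of the other short rows). It lay below 1 for 9 members (10.7%, against 20.5% of all rows and 15.0% of the other short rows). The 3 were Mir675, Mir5114 and Mir703, and the 9 were Mir546, Mir431, Mir3068, Mir335, Mir1982, Mir3064, Mir490, Mir505 and Mir218-1. For 8 of these 9, all but Mir546, the control value rests on 2 or 3 reads against 0 in the Osr2-/- library. With 2 reads against 0 the interval ends at 0.835, so it lies below 1 for any such row. These 8 passed the threshold through the Osr2+/- library alone, and the 3 through the Osr2-/- library alone. Their intervals are therefore a description.

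**Figure D2:**
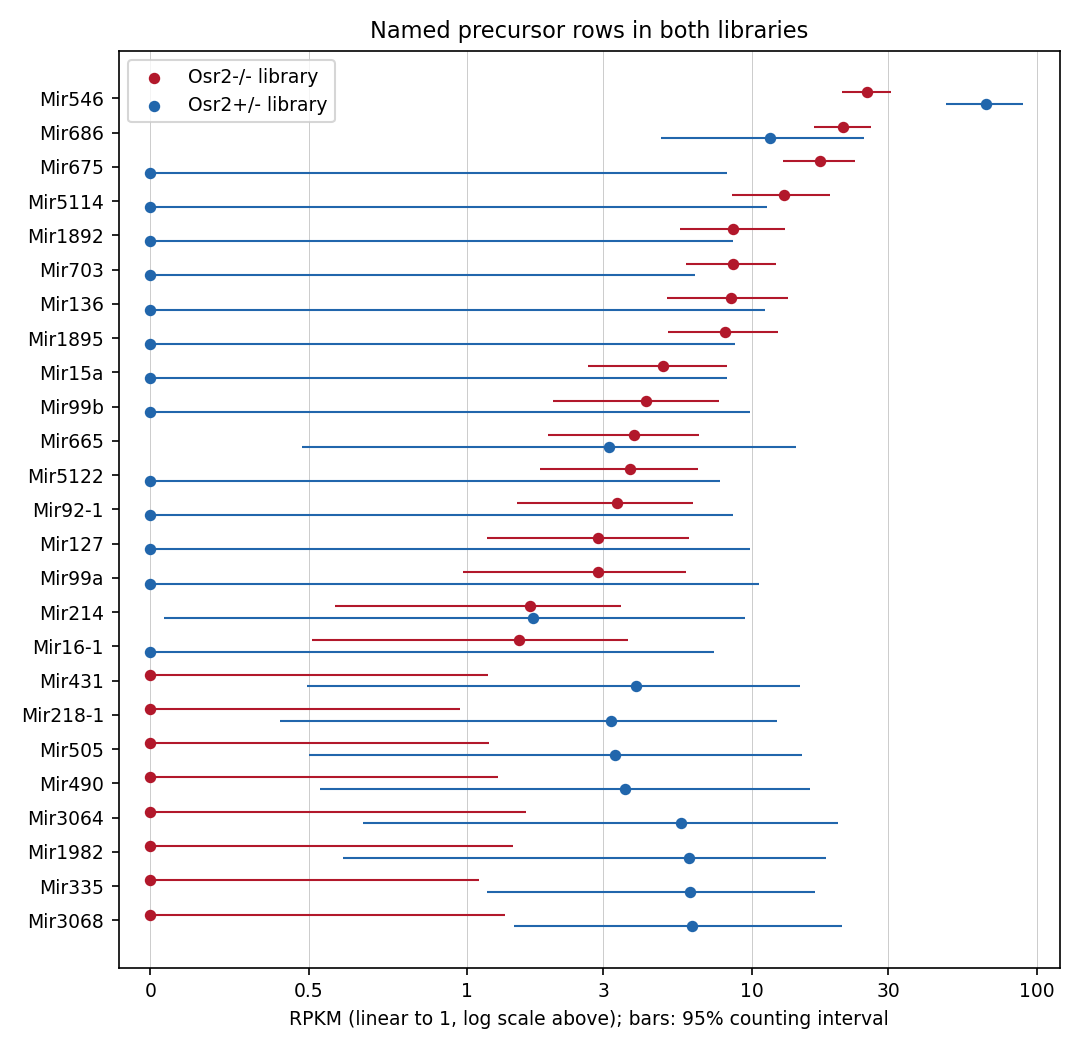
RPKM of 25 named precursor rows (linear to 1, log scale above), with the Osr2-/- library drawn above the Osr2+/- library in each row and bars for the 95% counting interval. The bars of Mir546 and Mir675 do not overlap between the libraries, while those of Mir214, Mir665 and Mir686 do.

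The highest precursors lay in exons of other, well expressed genes. Mir546 lies at chr10:126435496-126435616 (mm9), on the same strand as an exon of Ctdsp2, which encodes a phosphatase of the RNA polymerase II tail domain. It was at 25.3 RPKM in the Osr2-/- library (counting interval 20.7 to 30.6, 105 reads) and at 66.2 RPKM in the Osr2+/- library (47.8 to 89.0, 43 reads), a fold of 0.382 (0.266 to 0.559). Ctdsp2 itself was at 28.5 RPKM in the Osr2-/- library and 36.7 RPKM in the Osr2+/- library, 1.29-fold lower (1.19 to 1.39). The precursor was thus below its host in the mutant library and above it in the control library, and it was lower in the mutant by more than its host was.

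Mir686, at chr14:55235514-55235622, lies in an exon of Psmb5, a catalytic subunit of the proteasome. It was at 20.8 RPKM in the Osr2-/- library (78 reads) and at 11.5 RPKM in the Osr2+/- library (7 reads), 1.81-fold with an interval of 0.809 to 4.49 that includes 1. Psmb5 lay the other way, at 32.9 RPKM in the Osr2-/- library and 43.7 RPKM in the Osr2+/- library. The Mir686 hairpin also matches a processed pseudogene of Psmb5 at 97.2% identity, so reads of these copies may not be told apart.

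Mir675 is cut from an exon of H19, an imprinted long non-coding RNA that is abundant in embryonic mesenchyme, at chr7:149762969-149763052. It was at 17.3 RPKM in the Osr2-/- library (12.9 to 22.9, 50 reads) and nearly 0 in the Osr2+/- library, where 0 reads allow up to 8.17 RPKM. Its host was close between the libraries, with H19 at 130 RPKM in the Osr2-/- library and 111 RPKM in the Osr2+/- library, 1.18-fold (1.12 to 1.24). In the Osr2-/- library the precursor row was at 13.3% of the level of H19. The sequence of Mir675 lies wholly within the H19 transcript, so reads of this stretch had to be divided between the rows.

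The next members in level had the same form, a value in the Osr2-/- library and 0 in the Osr2+/- library. Mir5114, in an exon of the fatty acid desaturase gene Scd2, was at 12.9 RPKM (8.50 to 18.8) in the Osr2-/- library and listed at 0 in the Osr2+/- library, while Scd2 was at 29.5 RPKM in the Osr2-/- library and 29.7 RPKM in the Osr2+/- library. Mir1892 was at 8.59 RPKM in the Osr2-/- library and listed at 0 in the Osr2+/- library. It lies in an exon of Sptssa, a subunit of the enzyme that starts sphingolipid synthesis, by GENCODE, and overlaps 1110002B05Rik in the files, at 10.7 RPKM in the Osr2-/- library and 8.41 RPKM in the Osr2+/- library. The hosts of these members were thus read at like levels in both libraries.

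Mir703 and Mir1895 lie on the strand opposite to a protein-coding gene. Mir703, at chr5:98904575-98904683, lies in an intron of Cfap299, which the files list as 1700007G11Rik at 0.048 RPKM in the Osr2-/- library and 0.300 RPKM in the Osr2+/- library. The precursor row itself was at 8.55 RPKM (32 reads) in the Osr2-/- library and listed at 0 in the Osr2+/- library, where 0 reads allow up to 6.29 RPKM. The Mir703 hairpin matched the transcript of Eef1a1, the elongation factor that brings transfer RNAs to the ribosome, at 98.2% identity over its whole length. Eef1a1 was at 926 RPKM in the Osr2-/- library and 994 RPKM in the Osr2+/- library, and its part in the reads on Mir703 was not tested. Mir1895 was at 8.06 RPKM in the Osr2-/- library and listed at 0 in the Osr2+/- library. It lies in an exon of the non-coding Gm26691, antisense to Cxxc4, an inhibitor of Wnt signalling at 1.33 RPKM in the Osr2-/- library and 1.02 RPKM in the Osr2+/- library.

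Other hairpins also resembled transcripts elsewhere. Of the 62 hairpins, 32 matched a transcript of another annotated gene over at least 80% of their length at 90% identity or more, host genes included. Mir682 and Mir684-1 were named after their values were seen. Mir682, one of the 12 members read in both libraries, was at 2.36 RPKM in the Osr2-/- library and 5.003 RPKM in the Osr2+/- library. Its hairpin matched a transcript of Rpl37a, a ribosomal protein gene at 210 RPKM in the Osr2-/- library and 239 RPKM in the Osr2+/- library, at 99.0% identity. Mir684-1 is listed at 9 places in the genome, and 5 of its rows are members, each at 2.49 RPKM in the Osr2-/- library and 0 in the Osr2+/- library. Equal values on 5 chromosomes show that these rows were not measured independently, and they are members 5 times over.

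The imprinted Dlk1-Meg3 domain of chromosome 12 held 11 members, 13.1% of the 84. Imprinted genes are read from the copy of only 1 parent, and in this domain the maternal copy gives the non-coding RNAs Meg3, Rian and Mirg together with a large set of microRNAs. The files list 57 microRNA rows there, within 297 kb, of which 11 (19.3%) are members, against 73 of 597 (12.2%) elsewhere. Of the 11, 3 were read in both libraries, 6 in the Osr2-/- library alone and 2 in the Osr2+/- library alone.

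Mir127, Mir136 and Mir431 lie in exons on the strand opposite to Rtl1, a retrotransposon-derived gene of the paternal copy whose messenger RNA these microRNAs are known to target. Mir136, at chr12:110833537-110833598, was at 8.45 RPKM in the Osr2-/- library (18 reads) and listed at 0 in the Osr2+/- library, where 0 reads allow up to 11.1 RPKM. Mir127, at chr12:110831056-110831125, was at 2.88 RPKM in the Osr2-/- library (7 reads) and listed at 0 in the Osr2+/- library. Mir431, at chr12:110828657-110828747, lay the other way, at nearly 0 in the Osr2-/- library and 3.92 RPKM in the Osr2+/- library, from 2 reads. Rtl1 itself was at 0.454 RPKM in the Osr2-/- library and 0.738 RPKM in the Osr2+/- library, below the precursors in the library that read them. The counting intervals of Mir136 and of Mir127 overlap between the libraries.

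Outside Rtl1, Mir665 was read in both libraries, at 3.87 RPKM in the Osr2-/- library (12 reads) and 3.14 RPKM in the Osr2+/- library (2 reads), 1.23-fold (0.209 to 8.65). The other members of the domain were at 0.278 to 1.52 RPKM in the Osr2-/- library where they were read there at all. The host genes of the domain did not differ beyond counting error. Rian was at 17.8 RPKM in the Osr2-/- library and 19.7 RPKM in the Osr2+/- library (0.903-fold, 0.809 to 1.01), and Meg3 at 1.51 RPKM in the Osr2-/- library and 1.14 RPKM in the Osr2+/- library. Mirg was at 0.387 RPKM in the Osr2-/- library and 0.426 RPKM in the Osr2+/- library. Dlk1, the protein-coding gene at the edge of the domain, was at 10.6 RPKM in the Osr2-/- library and 10.1 RPKM in the Osr2+/- library. The intervals of the folds of Rian, Meg3, Mirg and Dlk1 all included 1.

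**Figure D3:**
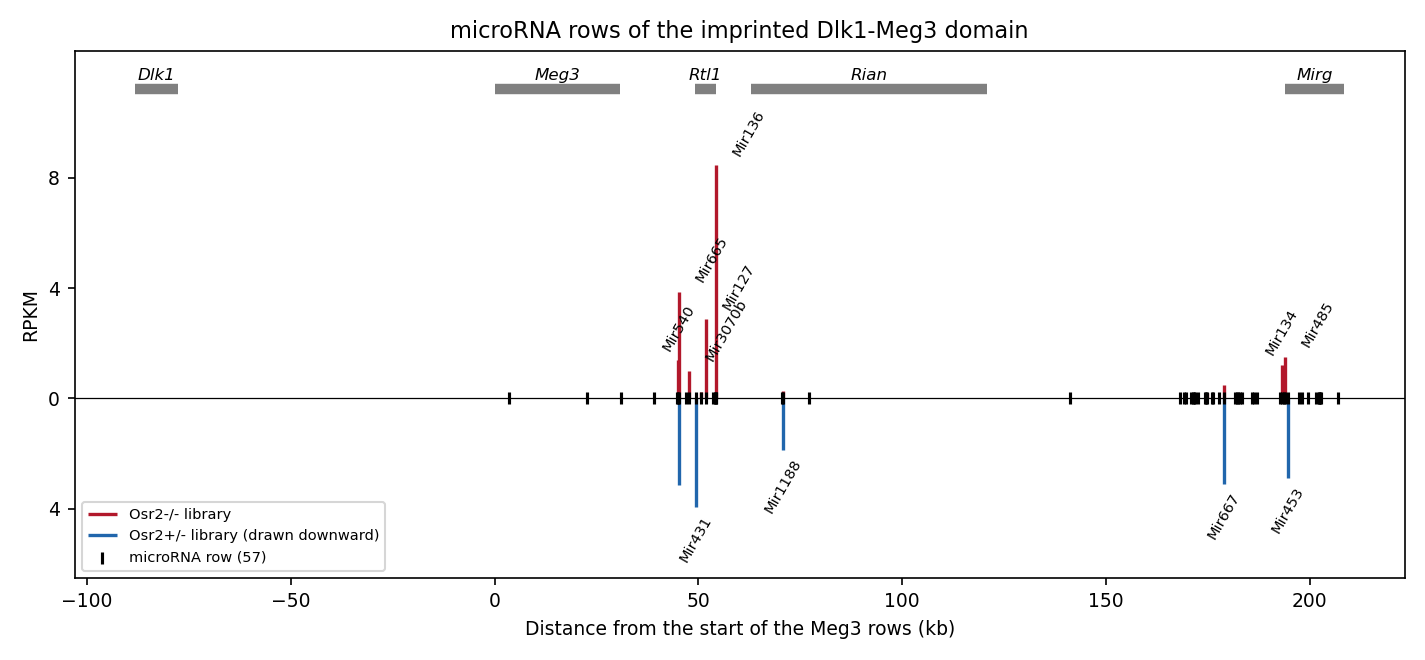
RPKM of the 57 microRNA rows of the imprinted Dlk1-Meg3 domain by distance in kb from the start of the Meg3 rows, with the Osr2-/- library drawn upward and the Osr2+/- library downward, and grey bars for 5 genes. Most members stand at or near Rtl1 and Mirg, and Mir136 is the highest at 8.45 RPKM in the Osr2-/- library.

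Within 10 kb of another member lay 13 members, in 4 groups. Of these groups, 2 are in the imprinted domain and 2 on chromosome 14. The chromosome 14 groups are the miR-15a/16-1 and miR-17-92 loci, both known for their part in cell cycle control.

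Mir15a and Mir16-1 lie in an intron of Dleu2, a non-coding RNA, side by side on chromosome 14, and their 5′ arms share the seed shown above. Mir15a was at 4.87 RPKM in the Osr2-/- library (14 reads) and Mir16-1 at 1.53 RPKM (5 reads), and both were listed at 0 in the Osr2+/- library. Dleu2 was at 1.06 RPKM in the Osr2-/- library (62 reads) and 0.260 RPKM in the Osr2+/- library (2 reads), 4.09-fold with an interval of 1.29 to 41.0. The Osr2-/- library was 6.38 times as deep, so most reads of a row would lie there at equal levels too. The fold intervals of Mir15a and Mir16-1 start at 0.520 and 0.144 and include 1. For both precursors the Osr2-/- level is below what 3 reads would have given in the Osr2+/- library.

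Mir92-1 is the last hairpin of the miR-17-92 cluster, and it was the only precursor of that cluster among the members. It was at 3.35 RPKM in the Osr2-/- library (9 reads) and listed at 0 in the Osr2+/- library. The Mir17hg row starts at chr14:115443612, beyond Mir17, Mir18, Mir19a and Mir20a, and covers Mir92-1, so it is not the whole primary transcript. This row, 2339 bases long, was at 0.908 RPKM in the Osr2-/- library (73 reads) and 0.471 RPKM in the Osr2+/- library (6 reads), 1.93-fold with an interval of 0.835 to 5.37 that includes 1. Because of its length, it is the member with the most reads after Mir546 and Mir686 in the Osr2-/- library.

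Of 17 precursor rows listed for mesenchyme and cartilage, 3 (17.6%) were members, against 83 of all 653 precursor rows (12.7%). These were Mir214, Mir199b and Mir218-1. Mir214, at chr1:164153499-164153608, lies in Dnm3os, a non-coding RNA of embryonic mesenchyme that carries Mir214 and a copy of Mir199a. It was at 1.66 RPKM in the Osr2-/- library (6 reads) and 1.71 RPKM in the Osr2+/- library (1 read), and Dnm3os was at 9.93 RPKM in the Osr2-/- library and 8.41 RPKM in the Osr2+/- library, 1.18-fold (1.06 to 1.32). Mir218-1, in an intron of Slit2, which encodes a secreted guidance protein, was listed at 0 in the Osr2-/- library and at 3.21 RPKM in the Osr2+/- library from 2 reads. Slit2 was near equal, at 5.35 RPKM in the Osr2-/- library and 5.08 RPKM in the Osr2+/- library. Mir199b, outside the naming rule and named to complete the 3, was at 0 in the Osr2-/- library and 1.999 RPKM in the Osr2+/- library from 1 read.

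Of 10 precursors known for epithelium, 1 was a member. This was Mir205, named after its value was seen, at 1.61 RPKM in the Osr2-/- library (4 reads) and 0 in the Osr2+/- library. The epithelial marker genes were also higher in sum in the Osr2-/- library, as given above, and their part in this value was not tested. None of 6 rows for erythroid and blood cells, 3 for endothelium, 7 for muscle or 13 for the nervous system was a member, and none of these rows was above 0.001 RPKM in either library. With 12.7% of all precursor rows detected, lists this short can hold no member without differing from the rest. The 9 names of the muscle list matched 7 rows and missed Mir1a-1 and Mir1a-2, the miR-1 precursors, both listed at 0 in both libraries. Mir1b, which is not on that list, lies within Mib1 near Mir133a-1, and its row covers the place of Mir1a-2. Its row was at 0.967 RPKM in the Osr2-/- library (4 reads) and 0 in the Osr2+/- library. Mir1b, Mir1a-1 and Mir1a-2 were named after their values were seen. Of 18 rows of the let-7, miR-100 and miR-125 families, 4 were members, all read in the Osr2-/- library alone. The highest were Mir99b at 4.25 RPKM (10 reads) and Mir99a at 2.87 RPKM (6 reads), both listed at 0 in the Osr2+/- library. They lie on chromosomes 17 and 16, in introns of Spaca6 and of the non-coding Mir99ahg, and share both the 5′ and the 3′ seed.

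Among the members read in the Osr2+/- library alone, the 4 highest were Mir3068, Mir335, Mir1982 and Mir3064. Mir3068 was listed at 0 in the Osr2-/- library and at 6.13 RPKM in the Osr2+/- library (3 reads), and its overlapping gene Alkbh1, a demethylase, was at 3.30 RPKM in the Osr2-/- library and 4.14 RPKM in the Osr2+/- library. Mir335, in an intron of the imprinted gene Mest, was listed at 0 in the Osr2-/- library and at 6.04 RPKM in the Osr2+/- library (3 reads). Mest was at 167 RPKM in the Osr2-/- library and 191 RPKM in the Osr2+/- library, 1.14-fold lower (1.10 to 1.19). The Mir335 row was thus far below its host in both libraries.

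Mir1982, in an intron of Oaz1, an inhibitor of polyamine synthesis, was listed at 0 in the Osr2-/- library and at 6.03 RPKM in the Osr2+/- library. Mir3064, at an exon edge of the RNA helicase gene Ddx5, was listed at 0 in the Osr2-/- library and at 5.65 RPKM in the Osr2+/- library. Both control values are 2 reads, and neither host was 2-fold apart, with Oaz1 at 110 RPKM in the Osr2-/- library against 126 RPKM in the Osr2+/- library. Ddx5 was at 39.6 RPKM in the Osr2-/- library against 40.0 RPKM in the Osr2+/- library. Mir490 was listed at 0 in the Osr2-/- library and at 3.59 RPKM in the Osr2+/- library, and Mir505 at 0 in the Osr2-/- library and at 3.30 RPKM in the Osr2+/- library. Mir490 is the 1 member whose host was at least 2-fold apart on log2(RPKM + 1): Chrm2, a muscarinic acetylcholine receptor gene, was at 0.403 RPKM in the Osr2-/- library and 2.66 RPKM in the Osr2+/- library, 6.60-fold lower (3.79 to 11.5).

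A list of 21 precursors of imprinted loci, which holds only part of the chromosome 12 domain, had 8 members (38.1%), against 12.7% of all precursor rows. The list was chosen with earlier results of these data known, so nothing is read from this difference. Of the 8, 4 lie outside chromosome 12, and 6 were read in the Osr2-/- library and 3 in the Osr2+/- library. The precursors and genes from here to the end of the next paragraph, other than Mir675 and Mir335, were named after their values were seen. Mir483 lies in an intron of Igf2, the fetal growth factor gene next to H19, and was at 0.768 RPKM in the Osr2-/- library (2 reads) and 0 in the Osr2+/- library. Igf2 was at 141 RPKM in the Osr2-/- library and 137 RPKM in the Osr2+/- library, 1.03-fold (0.997 to 1.08). Mir298, near the imprinted gene Gnas, was at 0.679 RPKM in the Osr2-/- library (2 reads) and 0 in the Osr2+/- library. Of these hosts, only H19 was higher and only Mest lower in the Osr2-/- library by more than counting error, and both by less than 1.5-fold.

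Several of the remaining members were single or few reads in abundant hosts. Mir677 overlaps Atp5b, a subunit of the mitochondrial ATP synthase at 208 RPKM in the Osr2-/- library and 194 RPKM in the Osr2+/- library, and was at 1.26 RPKM (3 reads) in the Osr2-/- library and 0 in the Osr2+/- library. Mir152, in an intron of the coatomer gene Copz2, was at 0 in the Osr2-/- library and 2.61 RPKM in the Osr2+/- library, from 1 read. Mir125b-1 and Mirlet7f-1, whose mature forms slow the cell cycle or repress growth regulators in many tissues, were at 1.499 and 0.614 RPKM in the Osr2-/- library and at 0 in the Osr2+/- library. Lingo2, a neuronal membrane protein gene, was at 0.862 RPKM in the Osr2-/- library and 2.36 RPKM in the Osr2+/- library, while its intronic Mir876 was at 2.34 RPKM in the Osr2-/- library (6 reads) and 0 in the Osr2+/- library. The Mir876 level is below what 3 reads would have given in the Osr2+/- library, so no direction can be given for it.

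Detection went with the level of the host gene. An overlapping gene row was found for 388 of the 653 precursor rows, and 59 of these (15.2%) were members, against 24 of 265 (9.06%) with no overlapping row. Where the host averaged under 0.5 RPKM over both libraries, 4 of 90 rows (4.44%) were members. At 0.5 to 5 RPKM the share was 24 of 204 (11.8%), at 5 to 20 RPKM 20 of 74 (27.0%), and above 20 RPKM 11 of 20 (55.0%). The 72 rows inside Sfmbt2, with 1 member, weigh on the second class, which held 23 of 132 (17.4%) without them. Reads of the host's unspliced or exonic RNA over the hairpin would count on the precursor row, and their part was not tested.

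GENCODE placed 67 of the 84 member rows by name, and on the same strand the median was higher in exons than in introns. On the same strand as an exon lay 26 members, with a median of 1.72 RPKM and a highest value of 25.3 RPKM in the Osr2-/- library. On the same strand as an intron lay 28, with a median of 0.762 RPKM and a highest value of 4.87 RPKM. Exons on the opposite strand held 3 members, introns on the opposite strand 4, and 6 lay outside genes. Their medians in the Osr2-/- library were 2.88, 1.59 and 0.888 RPKM, so a high level was not particular to exons of the same strand. Of the 26 in exons, 13 were 2-fold or more higher in the Osr2-/- library and 4 lower, and of the 28 in introns 9 were higher and 10 lower. Over all 84 members these shares were 44.0% and 21.4%, and over all 13296 rows at the threshold 4.26% and 3.56%. Above 0.001 RPKM in the Osr2-/- library were 24 of the 26 in exons and 20 of the 28 in introns. The rest passed through the Osr2+/- library alone and lower these medians, so no direction by place is read from the counts.

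On log2(RPKM + 1), nearly all hosts of the members were within 2-fold between the libraries, as were nearly all genes. Of the 59 members with a host, 58 had a host within 2-fold on log2(RPKM + 1), with host log2 ratios from -1.38 to 0.71 and a median of -0.01. Among all 9796 genes at 1 RPKM or more in at least 1 library, only 0.909% were 2-fold or more higher in the Osr2-/- library and 0.878% lower. The hosts are thus near the share of all genes by this measure, which understates differences of low hosts. As plain RPKM, Dleu2 was 4.09-fold (1.29 to 41.0) and Rnf215 4.39-fold (1.07 to 34.6) higher in the Osr2-/- library. Lingo2 was 2.74-fold lower (2.03 to 3.95) and Chrm2 6.60-fold lower (3.79 to 11.5). 1700007G11Rik and Gabre were also more than 2-fold lower, on 1 or 2 reads a library, with intervals that include 1. Rnf215 and Gabre were named after their values were seen. The precursor ratio minus the host ratio had a median of 0.98 on the log2 scale, from -2.72 to 3.96, and in 17 of the 59 the 2 ratios were within 1. Most members passed the threshold through a few reads of 1 library, so a wide spread of the precursor ratios is set by the choice of members. The sign was the same in 32 of 59. In level, the precursor row was below its host in 47 of 59 cases in the Osr2-/- library and in 50 of 59 in the Osr2+/- library, where rows at 0 count as below. In the Osr2+/- library only 20 rows with a host were above 0.001 RPKM, and 9 of them stood above their host. All 13 members at 0 in the Osr2-/- library have a host. The median precursor, with these rows included, stood at 20.7% of its host's level in the Osr2-/- library.

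The authors' tables mark 66 precursor rows as LOWDATA, a Cufflinks status for loci too complex or too shallow to fit, and all 66 overlap a longer row. Of these, 14 (21.2%) are members, against 69 of the 587 rows marked OK (11.8%). The 14 include Mir546, Mir686, Mir675, Mir5114 and Mir1892, the 5 highest members in the Osr2-/- library, and 12 of them lie in an exon on the same strand. In the Osr2-/- library the 14 had a median of 3.32 RPKM, and the 69 with status OK a median of 0.967 RPKM. The highest member with status OK was Mir703 in the Osr2-/- library, at 8.55 RPKM, and Mir3068 in the Osr2+/- library, at 6.13 RPKM.

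**Figure D4:**
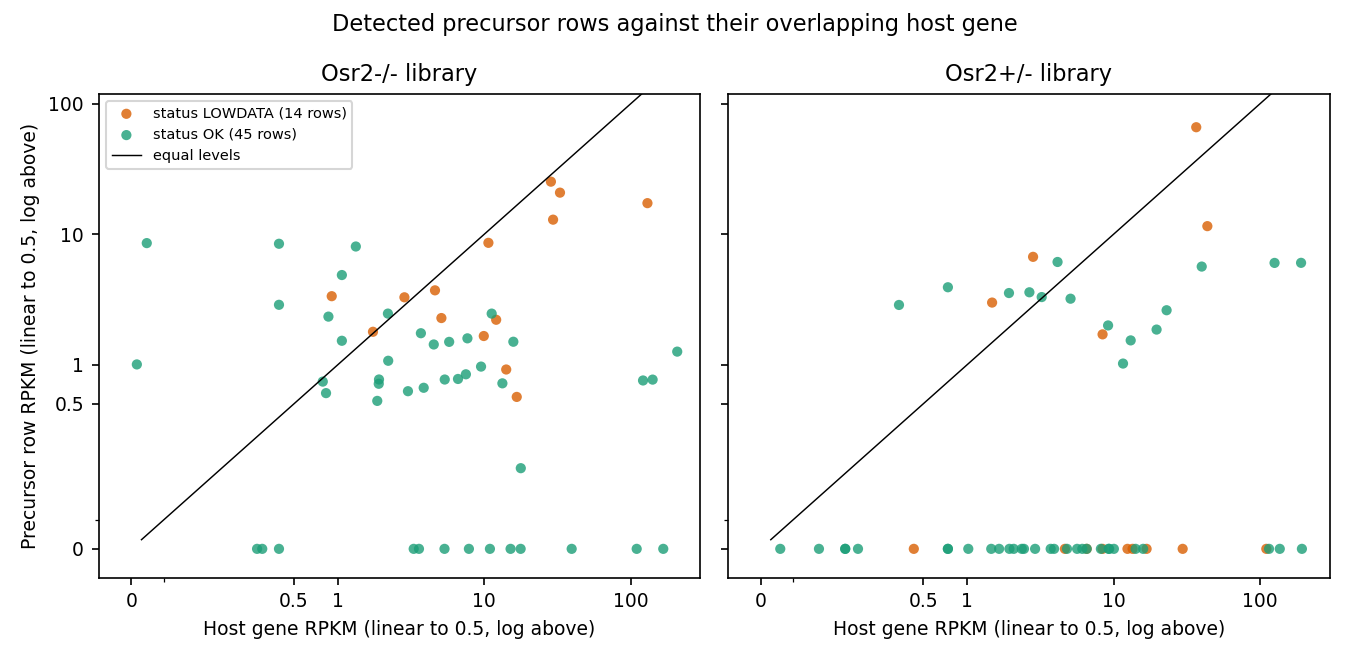
RPKM of 59 detected precursor rows against the RPKM of the overlapping host gene in the Osr2-/- library (left) and the Osr2+/- library (right), both axes linear to 0.5 and log above, coloured by the authors' quantification status. Most points lie under the line of equal levels, 47 of 59 on the left and 50 of 59 on the right, with rows at 0 counted as under it. Those at the bottom right are precursors listed at 0 in well expressed hosts.

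Taking all 653 precursor rows at once lessens the counting error. Per 1 M mapped reads, the scale of the RPKM values, they held 19.3 reads in the Osr2-/- library (exact Poisson interval 17.9 to 20.9) and 16.2 reads in the Osr2+/- library (12.96 to 19.96), 1.19-fold with a counting interval of 0.954 to 1.51 that includes 1. Per 1 M reads on listed rows, they held 84.1 reads in the Osr2-/- library and 60.3 reads in the Osr2+/- library, 1.395-fold (1.12 to 1.77). The precursor rows with the most reads were Mir546 and Mir686. Without them, the rest held 13.98 reads per 1 M mapped in the Osr2-/- library and 6.97 in the Osr2+/- library, 2.01-fold (1.45 to 2.92). Per 1 M reads on listed rows, the rest was 2.35-fold (1.71 to 3.43). Both the scale and these rows thus decide whether the interval includes 1. The LOWDATA rows held 10.05 reads per 1 M mapped in the Osr2-/- library and 10.2 in the Osr2+/- library, 0.983-fold (0.738 to 1.33). The rows with status OK held 9.26 reads per 1 M mapped in the Osr2-/- library and 6.002 in the Osr2+/- library, 1.54-fold (1.08 to 2.32). These rows, and the sums over all precursor rows, include the 5 Mir684-1 members, each at 7 reads in the Osr2-/- library and 0 in the Osr2+/- library. They were not measured independently but were summed as separate reads, and these intervals do not allow for that. The other rows under 150 bases held 9.45 in the Osr2-/- library and 10.4 in the Osr2+/- library, 0.913-fold (0.681 to 1.23). This compares 2 libraries of different depth and not the genotypes.

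On log2(RPKM + 1), the tested genes that make and use microRNAs were within 2-fold between the libraries, as were nearly all genes. Of 30 listed genes, 26 were at 1 RPKM or more in at least 1 library, and 0 of these 26 were 2-fold apart, where 0.909% of all 9796 such genes were higher in the Osr2-/- library by that measure and 0.878% lower. Their median log2 ratio was 0.02, from -0.35 to 0.33, against -0.05 for all such genes. The counting interval lay above 1 for 4 of the 26 (7.91% of all genes) and below 1 for 3 (16.0% of all genes).

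The 4 pathway genes farthest apart were Dis3l2, Xpo5, Tarbp2 and Xrn2. Dis3l2, the exonuclease that degrades uridylated let-7 precursors, was at 1.95 RPKM in the Osr2-/- library and 2.76 RPKM in the Osr2+/- library, 1.42-fold lower (1.01 to 1.96). Xpo5, which exports the hairpins, was at 8.96 RPKM in the Osr2-/- library and 6.94 RPKM in the Osr2+/- library, 1.29-fold higher (1.08 to 1.56). Tarbp2, a partner of Dicer1, was at 1.53 RPKM in the Osr2-/- library and 2.04 RPKM in the Osr2+/- library, 1.33-fold lower with an interval of 0.767 to 2.20. Xrn2, a nuclear exonuclease, was at 9.71 RPKM in the Osr2-/- library and 11.6 RPKM in the Osr2+/- library, 1.196-fold lower (1.03 to 1.38).

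The core enzymes, given for their roles and not by the naming rule, were close. Drosha was at 8.37 RPKM in the Osr2-/- library and 7.95 RPKM in the Osr2+/- library, 1.05-fold (0.906 to 1.23). Its partner Dgcr8 was at 2.85 RPKM in the Osr2-/- library and 2.82 RPKM in the Osr2+/- library, 1.01-fold (0.776 to 1.34). Dicer1 was at 5.07 RPKM in the Osr2-/- library and 4.39 RPKM in the Osr2+/- library, 1.15-fold with an interval of 1.01 to 1.33 that lies above 1. Dgcr8 also hosts a member, Mir1306, likewise outside the naming rule, whose hairpin lies in its messenger RNA. That row was at 3.29 RPKM in the Osr2-/- library (9 reads) and 6.71 RPKM in the Osr2+/- library (3 reads), a fold of 0.490 (0.117 to 2.70), so no difference was detectable. Lin28a, which blocks let-7 maturation in early embryonic cells, was listed at 0 in both libraries.

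**Figure D5:**
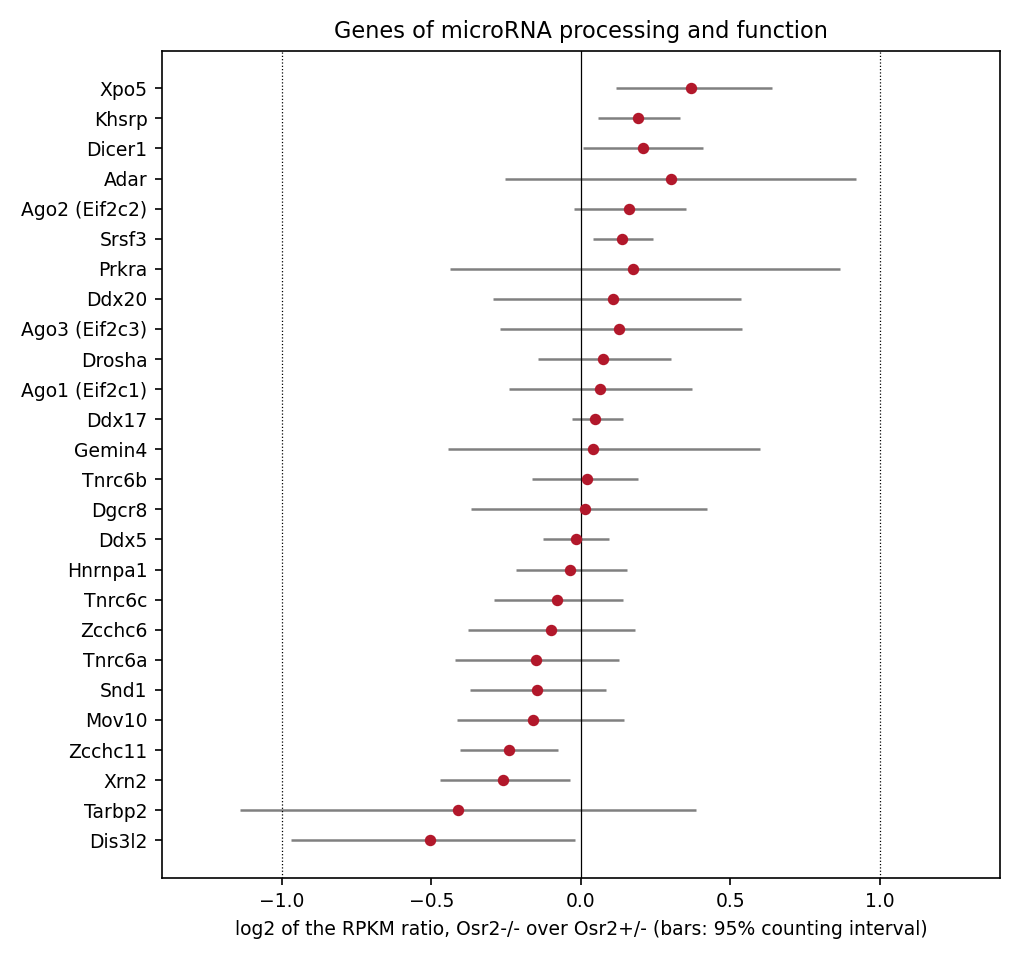
log2 of the plain RPKM ratio, Osr2-/- over Osr2+/-, of the 26 tested genes of microRNA processing and function, with 95% counting intervals as bars and dotted lines at 2-fold. All 26 points lie between the dotted lines, from Xpo5 at the top to Dis3l2 at the bottom.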

How the data were processed

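The submitters' processing notes name the genome build mm9, the aligner Bowtie 0.12.7 and TopHat 1.4.1. Cufflinks appears in the names of the deposited files only, with its version not given in the sources used here. Per the file headers, each deposited table gives for 28107 RefSeq rows the RPKM, the coverage (mean reads over each base), the length, the locus and a quantification status. The authors' RPKM values were used as deposited. The deposited coverage signal is not scaled for library size, and coverage divided by RPKM (1.52 in Osr2-/-, 0.238 in Osr2+/-) gave the relative depth. Rows were joined by transcript, gene, locus and length, and locus starts are given counted from 1.

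Approximate reads are coverage times length over 44.3 bases, the mean over both libraries of the median product among 20 to 66 bases. They are estimates, whole reads could not be recovered, and no count model was fitted. From them came 95% exact Poisson intervals of the RPKM and Clopper-Pearson intervals of the fold, which were tested on simulated data. They cover counting error only, since the cDNA was amplified and no molecular identifiers were counted. Values of 0.001 RPKM or less were taken as 0. The log2 ratio is of RPKM + 1, mutant over control, and understates differences of low rows. Exact zeros can be failed estimates, so such rows are called listed at 0. Rows with status LOWDATA were kept: 66 precursor rows have it, the same in both tables, and 14 of them are members.

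Hosts are overlapping rows of other genes of at least 150 bases, summed over all rows of the gene. Strand and exon came from GENCODE M21 by name, and hairpins were compared with its transcripts by BLAST 2.17.0. The library preparation is not stated to keep strand, so antisense partners cannot be told apart. The named members are the 12 with the highest mean RPKM at 10 or more mutant reads, up to 10 in each direction whose interval excludes 1, and list members with 5 or more mutant reads, up to 4 a list, with their hosts, the 4 pathway genes farthest apart and the 2 rows on each side of the threshold. The members, the lists and this rule were chosen with earlier results of these data known. Analyses used Python 3.11.15, pandas 2.3.3, numpy 2.4.6 and scipy 1.17.1. The host genes of 2 named members are not reported here.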

Additional observations from a re-analysis of the deposited data

How the results depend on the processing

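The counts below depend on thresholds, on the pseudocount and on scaling. The number of members was 14 at 5 RPKM and 8 where 0.5 RPKM was asked of both libraries, against 84. The count of members at least 2-fold higher in the Osr2-/- library was 59 with a pseudocount of 0.1 and 59 on the TPM scale, 6 with a pseudocount of 5 and 6 with the 5 RPKM filter, against 37. The count of those at least 2-fold lower was 5 with a pseudocount of 5 and 5 with the 5 RPKM filter, against 18. Intervals above 1 numbered 1 with a read step 1.5 times as long, 6 with one 1.5 times as short, 5 when scaled by reads on the listed rows and 1 among rows of OK status (chosen after seeing the data), against 3. Intervals below 1 numbered 4 with the longer step, against 9. The median of the precursor ratio minus the host ratio was 3.20 with a pseudocount of 0.1, against 0.98. The cause was not tested, beyond that lower pseudocounts spread low values and stricter filters leave fewer rows. Of the 25 named members, 21 moved under each of a pseudocount of 0.1 and the TPM scale beyond the range that the ends of their RPKM intervals give on log2(RPKM + 1), and 0 of those at least 2-fold apart changed direction. Most of them are at 0 in 1 library, so their log2 ratio is set by the pseudocount. TPM is RPKM times 9.26 in the Osr2-/- library and times 8.41 in the Osr2+/- library, which moves the log2 scale by 0.14. The pseudocount of 1 is thus smaller against TPM than against RPKM, much as with the pseudocount of 0.1. No pathway gene was 2-fold apart under any alternative run. No paired analysis was possible because there is 1 library a genotype, and for the same reason no replicate could be left out. Few reads limit nearly all values: 59 members were at 0 reads in the shallow Osr2+/- library.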
